A study of Rattus norvegicus with 2 samples.

Results

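Cytosolic ribosomal protein genes were followed on 2 arrays of rat liver RNA, 1 for a low-fat and 1 for a high-fat diet. They were taken as every probe set whose only gene symbol starts with Rpl or Rps and a digit, or is Rpsa or one of the Rplp stalk genes, without the Rps6k kinases and without pseudogenes. This gave 50 of 15866 probe sets, for 44 of 10411 genes with a single symbol: 30 of the large ribosomal subunit and 14 of the small one. Both arrays came from total liver RNA of rats labelled SD, a common outbred laboratory strain. An age of 4 weeks and a feeding time of 9 weeks are given as separate values. The 4 weeks therefore cannot be the age after 9 weeks of feeding, and no other age is given here. Each diet was based on AIN93G, a purified rodent diet, and the labels set them apart only as low-fat and high-fat. The sources used here give neither the fat content nor the sex of the rats, nor how many animals were pooled, if any. With 1 array per diet there is no replicate check and no test, so all values describe these 2 arrays.

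The cytosolic ribosome is built of ribosomal RNA and a large set of different proteins, nearly all of them present as a single copy. The small subunit reads the messenger RNA, and the large subunit joins the amino acids and passes the growing chain out through its exit tunnel. Messenger RNAs of ribosomal proteins typically begin with a C followed by an unbroken run of pyrimidines, the 5′ terminal oligopyrimidine tract, through which the mTOR kinase and the RNA-binding protein Larp1 control their translation. In liver, which makes secreted proteins in bulk, these messenger RNAs are abundant.

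At its annotated start, part of the family carries such a tract. The windows below give 15 bases before and 15 from the start of 4 genes on GRCr8, from RefSeq, and were chosen because the results turn on these genes. Capitals mark the unbroken run of C and T that opens with a C at the start base; for Rps6, whose annotated start is not a C, nothing is in capitals.
Rpl37a (chr9:81748076-81748105, plus strand): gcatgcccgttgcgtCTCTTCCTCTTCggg
Rpl39 (chrX:121195882-121195911, minus strand): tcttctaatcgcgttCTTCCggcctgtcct
Rps15 (chr7:10068101-10068130, minus strand): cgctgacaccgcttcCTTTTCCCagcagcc
Rps6 (chr5:106420526-106420555, minus strand): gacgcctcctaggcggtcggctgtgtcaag

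The run was 12 bases long in Rpl37a, 8 in Rps15 and 5 in Rpl39. Other genes with low ratios lacked it: Rps4y2 had a run of 1 base and Rpl23 had none. A start with C and a run of at least 5 such bases, read on the coding strand only and at the start base only, was found in 11 of the 39 member genes with a window (28.2%). Among 21842 protein-coding genes with a window of the same length the share was 2.52%, and among 65 mitochondrial ribosomal protein genes it was 3.08%. RefSeq gives 1 start per gene here, and a gene without the run at that base may carry one at another start. The 11 genes with the run had a median log2 ratio of -0.07 on the arrays and 3 of them were higher on the high-fat array, against -0.01 and 13 of 27 measured genes without it. Over all measured genes 50% were higher. Of the 3, Rpl19 and Rplp0 changed sign with the scaling of the arrays, as did several genes without the run. The difference between genes with and without the run was not tested.

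A signal is the deposited intensity of a probe set on a linear scale. The log2 ratio has the high-fat signal over the low-fat signal, centred on the median of all measured probe sets, and higher or lower means its sign. To count as measured, a probe set needed a mean log2 signal at or above a floor, the mean log2 of the array medians (15.7 for low-fat, 14 for high-fat). The most intense measured probe set stood for its gene. Of the 50 probe sets 46 were measured, and of the 44 genes 42. Rpl30, at 0.7 and 0.8, and Rpl3l, a muscle-enriched relative of Rpl3, at 5.2 and 2.4, were below the floor and received no ratio. Second probe sets of Rps24 (5.6 and 4.6) and Rpl14 (1.0 and 2.3) were below it too.

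Hepatocyte markers were measured in 11 of 12 listed genes, and their signals summed to 48812 (low-fat) and 49397 (high-fat). Of 8 lymphocyte markers with a probe set none was measured, with sums of 56.9 and 57.7 and none at 0. The summed macrophage and Kupffer cell markers were at 1424 and 1240, all 8 measured, and the stellate cell markers at 404.8 and 307.2, with 4 of 8 measured. All sums here are of uncentred signals. After centring, 4 of the 8 macrophage and Kupffer cell markers were higher on the high-fat array and 4 lower. All 11 measured hepatocyte markers were higher, with a median log2 ratio of 0.14, where 50% of all measured genes were higher. The signs of some, such as Apoa1, flipped with the scaling. All 4 measured stellate cell markers were lower, with a median of -0.43. Of these, Col1a2 was at -1.06 but at 0.07 on another probe set. Of the measured endothelial markers 1 was higher and 2 lower. The sums for endothelial cells were 318.5 and 299.6, for red cells 1426 and 1392, and for bile duct cells 50.2 and 43.7. The beta-actin control had 3′/5′ ratios of 2.69 and 2.85, and the GAPDH control 1.58 and 1.67. The part of cell makeup and RNA quality in the ratios below was not tested, and in whole tissue fewer cells of a type cannot be told apart from less RNA per cell.

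After centring, most ribosomal protein genes had ratios close to 0, with Rpl37a far above the rest and 5 genes more than 1.2-fold lower (Rpl39, Rps4y2, Rps15, Rpl35 and Rpl23). Of the 42 measured genes 17 were higher and 25 lower on the high-fat array, with a median log2 ratio of -0.03 and quartiles of -0.12 and 0.06. Over all 6012 measured genes 50% were higher, and the quartiles were -0.20 and 0.18. The count of higher genes depended on the scaling: it was 5 of 42 without centring, 9 with quantile normalization, and 11 both with loess and with centring on the hybridization controls. Of all measured genes, 33.2% were higher without centring and 41.8% with the hybridization controls. The shares were 49.5% with quantile normalization and 49.8% with loess. The members' median was below 0 under all of these scalings, between -0.15 and -0.03. Without centring the median of all measured genes was itself at -0.12.

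The counts of members past a fold threshold were small and near the shares over all measured genes. At 1.5-fold or more, 1 of the 42 was higher, where 4.22% of all measured genes were, and 1 was lower, where 5.44% were. At 2-fold or more 1 was higher, against 0.848% of all measured genes, and 0 were lower, against 0.865%. The gene past 2-fold was Rpl37a, and the one past 1.5-fold on the lower side was Rpl39. Without Rpl37a the members ranged from -0.62 to 0.18, and 36 of these 41 lay within 1.2-fold. Of all 602 genes in the brightest 10% of measured genes, where most members lay, 11 were 1.5-fold or more higher and 9 lower.

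**Figure D1:**
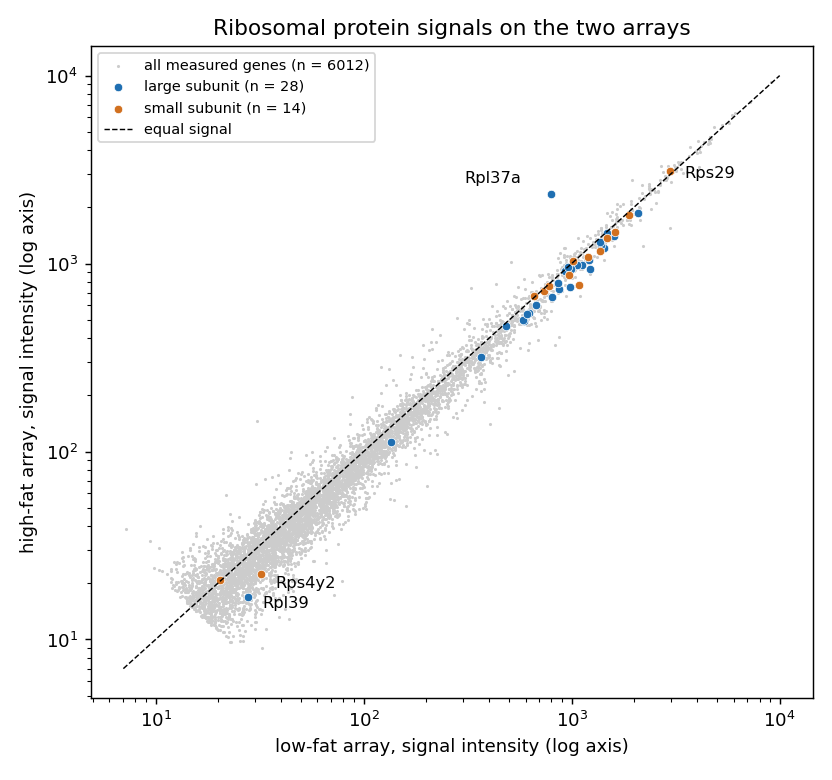
Signal intensity of each gene on the low-fat array (x axis) and the high-fat array (y axis), both axes logarithmic and not centred. Blue and orange points are the 28 large and 14 small subunit genes, grey points all 6012 measured genes, and the dashed line marks equal signal. Rpl37a stands well above the line at 797.0 and 2339.7, and most other intense members lie along or slightly below it.

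Most of the members were intense. Of the 42 measured genes 37 were among the brightest 10% of measured genes, a mean signal of about 371 or more, where they made up 6.15% of 602 genes. Of these 37, 33 lay within 1.2-fold (89.2%), against 452 of the other 565 genes of that brightness (80%). The quartiles of the log2 ratio were -0.10 and 0.06 for the 37 and -0.06 and 0.18 for the 565, with medians of -0.02 and 0.07. The SD depended on Rpl37a: it was 0.30 for the 37 and 0.24 for the 565, and 0.12 for the 36 members without Rpl37a, which ranged from -0.38 to 0.18. Medians for all 42 members and these other genes were -0.15 and -0.05 without centring and -0.09 and 0.01 after loess. With quantile normalization they were -0.08 and 0, so the members' median was the lower one under each. However, the 42 include genes below that brightness. Leaving out centring shifts both medians by 1 amount, so it could not change their order. Across the 41 measured members other than Rpl37a, log2 signals on the arrays correlated with r = 0.996, a description over genes that share the same 2 RNA samples.

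Before any scaling, the signals of the 42 members summed to 42579 in low-fat and 40307 in high-fat liver. Without Rpl37a the sums were 41782 and 37968. As a share of the signal of all probe sets they were 2.88% and 2.87% with Rpl37a and 2.83% and 2.70% without it.

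Rpl37a encodes a small zinc-binding protein of the large subunit. Its signal was 797.0 in low-fat and 2339.7 in high-fat liver, 2.94-fold higher as deposited and 3.18-fold higher after centring. Its log2 ratio of 1.67 was between 1.55 and 1.67 under all 5 scalings. The next member, Rps29, was at 0.18, which left a gap of 1.49 on the log2 scale. By log2 ratio Rpl37a was number 5 of all 6012 measured genes and number 1 of the 602 in the brightest 10%, where the next gene was at 1.28 and 3 genes in all were 2-fold or more higher.

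The value for Rpl37a rests on 1 probe set, and no other probe set with that single symbol was on the array. The Entrez identifier that the platform annotation gives for it is not in the reference gene table of GRCr8, where Rpl37a has another identifier. The same held for Rps9, and 2 member probe sets were matched by symbol only. Ribosomal protein genes have many processed copies of nearly the same sequence in the genome, so a probe set may also bind transcripts of such copies.

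Of the 28 large subunit genes 9 were higher and 19 lower. Their median was -0.07, with quartiles of -0.14 and 0.02. The highest after Rpl37a were Rpl6 at 0.11, from 963.6 to 959.3, Rpl11 at 0.09, from 927.5 to 907.7, Rpl19 at 0.08, from 1484.7 to 1451.0, and Rpl13a at 0.05, from 484.1 to 462.8. Their uncentred signals were all lower on the high-fat array, so the sign of each of these 4 flipped without centring, those of Rpl13a and Rpl19 with quantile normalization too, and that of Rpl13a also with centring on the hybridization controls. Rpl11, with Rpl5, binds the 5S ribosomal RNA and can restrain Mdm2, the ligase that degrades p53. Rpl5 went from 1387.8 to 1261.9, at -0.02.

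The lowest large subunit gene was Rpl39, which lines the exit tunnel, at -0.62 with signals of 27.9 and 16.8. These lie close to the floor. Rpl35, at the mouth of the tunnel, was at -0.28, from 1230.0 to 937.0. Other proteins around the tunnel were nearer to 0: Rpl4 was at -0.07, Rpl23a at -0.04 and Rpl26 at 0.01, a sign that flipped under each other scaling. These tunnel genes were grouped after their values were seen. Rpl23 followed Rpl35 at -0.27, from 979.8 to 749.1, and Rpl27 was at -0.16, from 803.9 to 662.1. All of Rpl39, Rpl35, Rpl23 and Rpl27 were lower under every scaling run.

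By mean log2 signal over both arrays, the most intense large subunit probe sets were those of Rpl7a, from 2080.2 to 1851.1 and at -0.05, Rpl27a, from 1606.3 to 1403.0 and at -0.08, and Rpl19, given above. Rpl3, a protein close to the site of peptide bond formation, went from 1374.8 to 1295.5, at 0.03. Rplp0, the base of the stalk that recruits elongation factors, went from 1062.0 to 984.9, at 0.01, and Rpl12, beside it, from 1124.2 to 983.5, at -0.08. The signs of Rpl3 and Rplp0 flipped with the scaling. Rpl41, the shortest of the ribosomal proteins, went from 1438.2 to 1205.6, at -0.14.

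Of the 14 small subunit genes 8 were higher and 6 lower. Their median was 0.03, with quartiles of -0.04 and 0.11. None was past 1.5-fold. Rps29, a zinc-binding protein of the small subunit head, went from 2965.3 to 3097.9 and was the highest, at 0.18. Rpsa, also known as the laminin receptor precursor, was at 0.15, from 1009.9 to 1033.7. Rps9 went from 660.0 to 668.0, at 0.13. These 3 genes had ratios above 0 under all 5 scalings, without centring too. Rps3, at the channel where messenger RNA enters, was at 0.08, from 781.5 to 763.6, and its sign flipped without centring.

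The lowest small subunit genes were Rps4y2, at -0.40 with low signals of 32.1 and 22.4, and Rps15, at -0.38 with signals of 1089.7 and 772.0. Rps15 reaches toward the decoding site, and of the members in the brightest 10% it had the lowest ratio. Rps16 was at -0.13, from 1374.5 to 1159.7, Rps28 at -0.04, from 972.1 to 872.2, and Rps3a at -0.03, from 1618.6 to 1465.5. All 5 were lower under every scaling run. Rps23, a decoding centre protein, went from 1877.0 to 1804.2, at 0.06, with a sign that flipped with the scaling. Rps6, the member that S6 kinases phosphorylate, was at 0.002, from 1477.4 to 1364.6, and was below 0 under each other scaling.

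**Figure D2:**
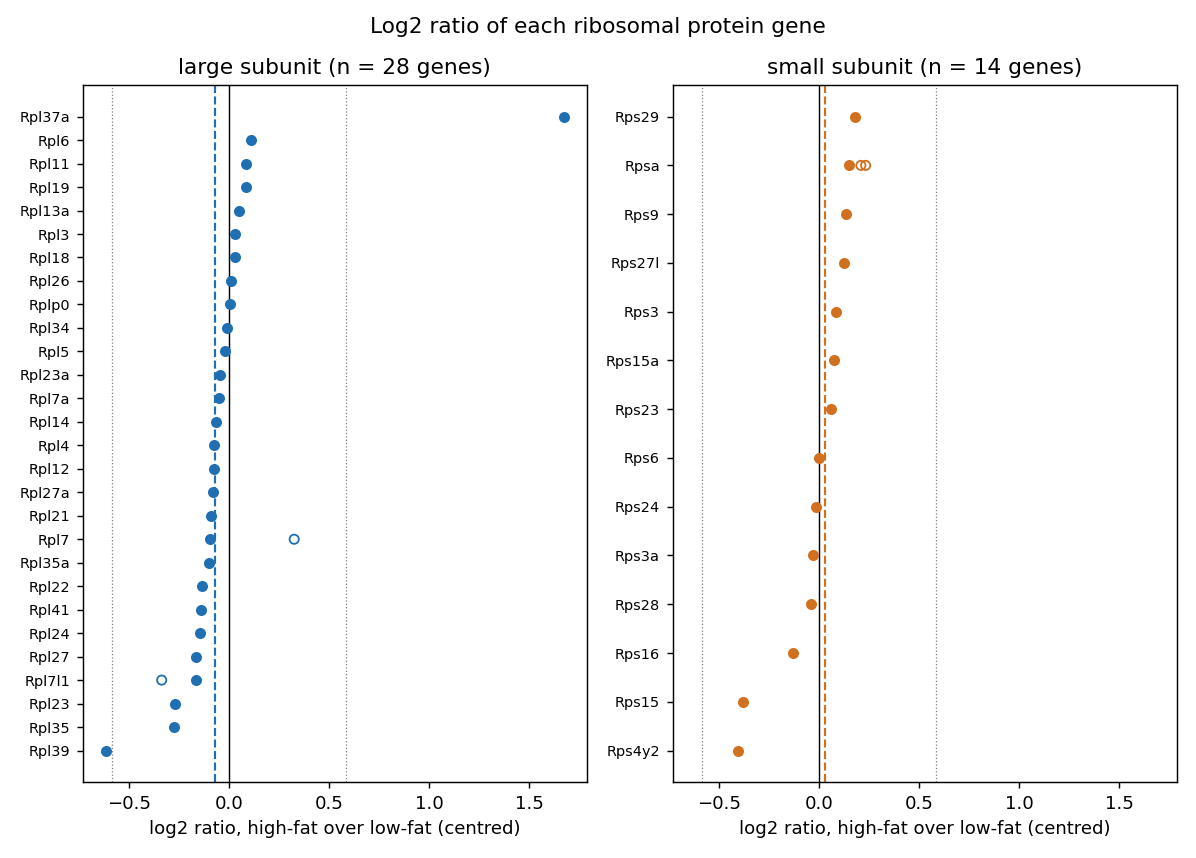
Centred log2 ratio, with high-fat over low-fat (x axis), for each measured large subunit gene (left) and small subunit gene (right), in order of ratio. Filled points are the probe set used for the gene, open points its other measured probe sets, dashed lines the subunit medians (-0.07 and 0.03) and dotted lines 1.5-fold. Rpl37a at 1.67 lies apart from all other genes.

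The difference of the subunit medians, large minus small, was -0.10 on the log2 scale. The small subunit range, -0.40 to 0.18, lay within the large subunit range, -0.62 to 1.67. Without Rpl37a the large subunit genes ranged from -0.62 to 0.11. Over the 25 large and 12 small subunit genes in the brightest 10%, the medians were -0.05 and 0.03. Over the 28 and 14 genes the order held with quantile normalization, at -0.10 and -0.04, and with loess, at -0.11 and -0.05. The difference was smaller there, at -0.05 and -0.06. Medians were -0.13 and -0.03 with centring on hybridization controls, and -0.19 and -0.09 without centring. Both of these settings shift all ratios by 1 amount, so they could not change the order or the difference. Under the 4 other scalings the small subunit median was below 0. The numbers of higher genes were 1 of 28 and 4 of 14 without centring, where 33.2% of all measured genes were higher. Genes of a subunit are not replicates of a diet, and the difference was not tested.

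**Figure D3:**
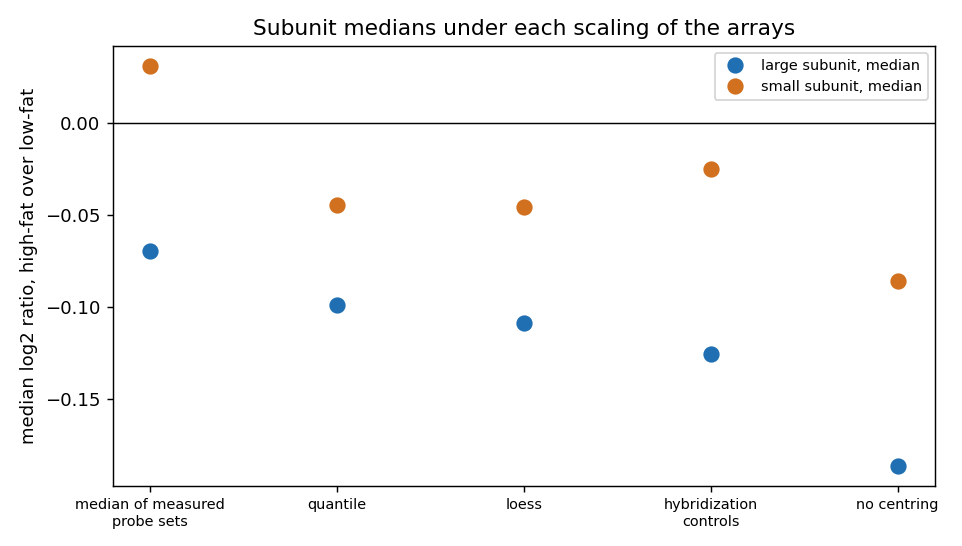
Median log2 ratio, with high-fat over low-fat (y axis), of the 28 large and 14 small subunit genes under 5 scalings of the arrays (x axis). The large subunit median lies below the small subunit median in each, from -0.07 against 0.03 to -0.19 against -0.09.

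Only 3 genes had more than 1 measured probe set. Those of Rpsa lay close together, at 0.15, 0.21 and 0.23, but the names of those at 0.21 and 0.23 mark possible cross-hybridisation. Those of Rpl7l1, a relative of Rpl7, were both lower, at -0.16 (135.7 and 111.7) and -0.34 (72.9 and 53.3). Rpl7 was at -0.10 on its intense probe set (1216.4 and 1049.5) and at 0.33 on a dim one (17.3 and 20.0). Rps27l, a relative of Rps27 that p53 induces, was at 0.12 with signals of 20.5 and 20.6, near the floor. Rack1, a scaffold protein that sits on the small subunit but falls outside the symbol rule, went from 730.4 to 629.1, at -0.10.

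Other gene groups of ribosome assembly and translation also had medians near 0. Mitochondrial ribosomal proteins, which build the separate ribosome of that organelle, were measured for all 71 genes listed. Of these 38 were higher and 33 lower. Their median was 0.03, and -0.09 without centring, where 22 were higher, against 33.2% of all measured genes. On the higher side 0 were past 1.5-fold, where 4.22% of all measured genes were, and on the lower side 1, where 5.44% were. The extremes were Mrps15 at 0.55 and Mrpl49 at 0.49, and Mrpl38 at -0.88 and Mrps26 at -0.57; the second probe set of Mrpl49 was at 0.10. Their quartiles were -0.12 and 0.15.

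Of 33 measured translation factors 17 were higher and 16 lower. Their median was 0.003, and 6 were higher without centring, against 33.2% of all measured genes. Eef1a1 delivers aminoacyl-tRNA to the ribosome, and its messenger RNA also carries the pyrimidine tract. It was the one translation factor past 1.5-fold, where 4.22% of all measured genes were that much higher and 5.44% lower. Eef1a1 was at 0.63, from 1950.4 to 2783.8, and at 0.30 on its second probe set. Eif2s3 was next, at 0.32, and the lowest were Eif5b, for subunit joining, at -0.23 and the helicase gene Eif4a2 at -0.22. Eef2, the translocation factor, went from 860.2 to 695.7, at -0.19. Of 31 measured ribosome biogenesis genes 16 were higher and 15 lower. In each direction 1 was past 1.5-fold, where 4.22% of all measured genes were higher and 5.44% lower by that much. Their median was 0.04, and -0.07 without centring. Nhp2 and Dkc1, both of the complex that converts uridine to pseudouridine in ribosomal RNA, were the highest, at 0.75 and 0.49. Wdr12, of large subunit assembly, was at -0.65 with low signals of 27.8 and 16.3. Ubtf, a factor of ribosomal RNA transcription, was at -0.52 with low signals of 36.3 and 23.3, where another probe set of Ubtf was at 0.12.

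The list of the mTOR axis and its kinases had 3 of 11 measured genes higher and 8 lower. Of these, 1 was past 1.5-fold lower, where 5.44% of all measured genes were. Its median was -0.22, and -0.34 without centring, where 2 were higher, against 33.2% of all measured genes. As the list holds both Mtor and its inhibitor Tsc2, the median is not a level of mTOR signalling. The lowest were Tsc2, an inhibitor of mTOR signalling, at -0.94 from 45.6 to 21.9, and Mtor itself at -0.42 from 56.4 to 39.0. The highest were Rps6kb1, the S6 kinase, at 0.30 but at -0.42 on its second probe set, and Rptor at 0.14. Larp1 went from 272.8 to 215.7, at -0.22.

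**Figure D4:**
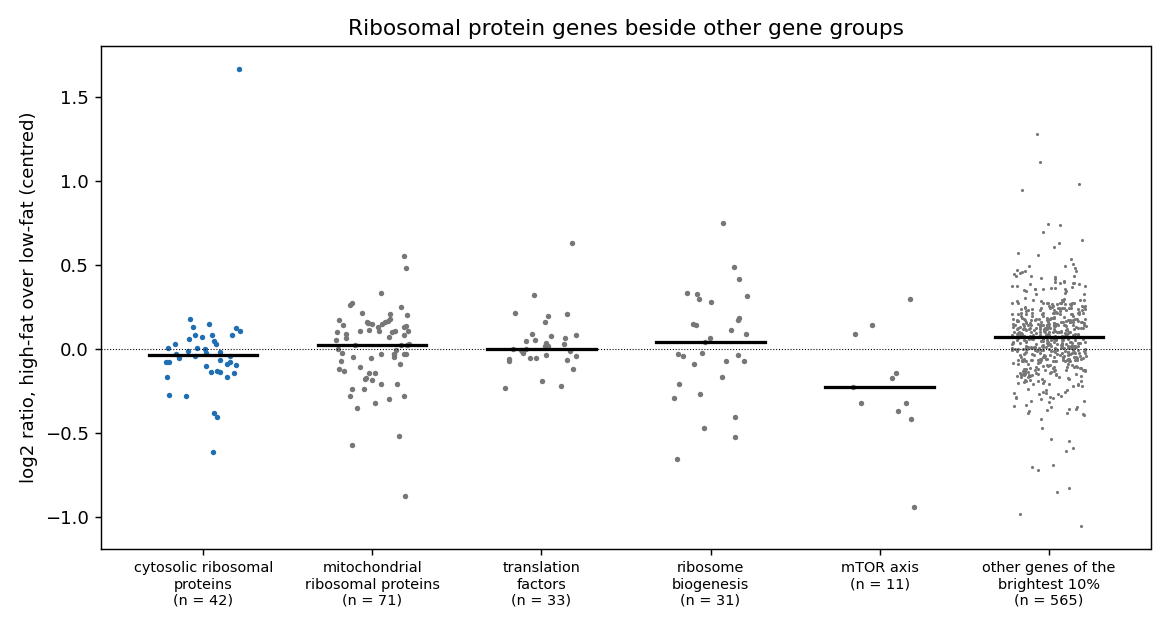
Centred log2 ratio, with high-fat over low-fat (y axis), of single genes (points) in 6 groups, with horizontal bars at the medians and points spread sideways at random. The 42 cytosolic ribosomal protein genes have a median of -0.03, with Rpl37a at 1.67 above the others and Rpl39 at -0.62, Rps4y2 at -0.40 and Rps15 at -0.38 lowest, and the 565 other genes of the brightest 10% have a median of 0.07.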

How the data were processed

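Values are the authors' deposited signal intensities, 1 for each probe set on each array, and from their range the scale is linear. The sources used here do not state how the authors scanned, background-corrected or scaled them. Diets came from the sample titles. Gene values leave out 57 control probe sets and 4 others that are 0 on an array. Symbols came from the platform annotation. Ratios were taken on the log2 scale with no pseudocount and centred by subtracting their median over measured probe sets, -0.117. Nothing could be tested with 1 array per diet, and the number of arrays limits the precision of all values. The members and lists were chosen with earlier results of these data known. Named genes were Rpl37a, the 5 highest, 5 lowest and 3 most intense of each subunit, members past 1.5-fold, relatives, members below the floor or with disagreeing probe sets, and the 2 highest and 2 lowest of each companion list. Others (such as Rpl3, Rplp0, Rpl12, Rpl41, Rpl4, Rpl5, Rpl23a, Rpl26, Rps6, Eef2 and Larp1) were added for their known roles after their values were seen. Alternatives were 4 other scalings, 3 other floors, a pseudocount of 50, the median over probe sets, and leaving out relatives, or probe sets whose names mark possible cross-hybridisation. Leaving out Rpl37a and keeping only the brightest 10% were added after seeing the data. The steps were checked on simulated arrays. Python 3.11.15, numpy 2.4.6, pandas 2.3.3 and statsmodels 0.14.6 were used.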

Additional observations from a re-analysis of the deposited data

Results flagged for a closer look

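Another 28 probe sets carry several symbols, all of ribosomal proteins, their relatives or pseudogenes, and did not enter the values above. All 28 were measured, with a median log2 ratio of -0.02, 10 higher and 18 lower. Without centring 2 were higher, where 33.2% of all measured genes were. Of the 28, 1 was past 1.5-fold higher on the high-fat array, where 4.22% of all measured genes were, so the count is near that background. It was at 0.654 with signals of 648.5 and 941.4, and the low-fat array serves as the control. Its ratio was between 0.54 and 0.65 over the 5 scalings, and the next highest of the 28 was at 0.17. Its symbols do not name a single gene, so none is given.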

How the results depend on the processing

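The log2 ratio of Rpl37a and the order of the subunit medians kept their sign under every alternative that was run. For that order, no centring and the hybridization controls were no check, as both shift all ratios by 1 amount. The medians of all members and of the large subunit stayed below 0 under these alternatives, while those of the small subunit, the mitochondrial ribosomal proteins, ribosome biogenesis and translation factors changed sign under some. Without centring, 5 members were higher, where 33.2% of all measured genes were. The medians were then -0.1499 for all members, -0.1866 for the large subunit, -0.08583 for the small subunit and -0.1137 for translation factors. This setting lowers all ratios by 1 amount. The number of higher members was 9 with quantile normalization and 11 with loess and with centring on the hybridization controls. The shares of all measured genes that were higher under these were 49.5%, 49.8% and 41.8%. The small subunit median was -0.04487 with quantile normalization and -0.04596 with loess. The number of members past 1.5-fold in either direction, 2, was 1 with quantile normalization, with the floor at the 75th percentile, with a pseudocount of 50, and, chosen after seeing the data, without Rpl37a or with the brightest 10% only. The cause of the changes under quantile normalization, loess and the hybridization controls was not tested. Of 120 values under the alternatives the other 105 moved by less than the spread between members (for Rpl37a, between genes of the brightest 10%; counts by no more than 1.5 times). Signals near the floor, as for Rpl39, Rps4y2 and Rps27l, limit those ratios. Low signals also limit the ratios of Wdr12, Ubtf, Dkc1, Mrpl38, Mrpl49, Eif2s3 and Rps6kb1 in the companion lists. No paired analysis was possible because each diet has 1 array.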
